A study of Mus musculus with 4 samples.

Results

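Wnt ligands and their Frizzled receptors were examined for nearby binding of MIXL1 in differentiating mouse epiblast stem cells. The group held 10 genes chosen by name, the ligand genes Wnt3, Wnt3a, Wnt5a, Wnt5b, Wnt8a and Wnt11 and the receptor genes Fzd5, Fzd7, Fzd8 and Fzd10, of 21523 protein-coding genes considered. A peak of the deposited MIXL1 list was assigned to a gene when at least 1 bp of it lay within 100 kb of the gene's span, and 16 of the 9598 peaks met this rule for a member. MIXL1 is a paired-type homeodomain transcription factor of the primitive streak. Epiblast stem cells (EpiSC) are a pluripotent cell type that resembles the epiblast after implantation. The series has 2 libraries from chromatin precipitated with an anti-FLAG antibody and 2 from input chromatin, and all 4 came from EpiSC lines in which FLAG-tagged Mixl1 was inducible. The peaks are thus those of the induced, tagged protein. Every culture was differentiated with serum into embryoid bodies for 2 days and received doxycycline at 1 µg/mL for the last 24 h, after routine growth on irradiated fibroblasts with bFGF at 10 ng/mL and activin A at 20 ng/mL. Induction thus came from doxycycline rather than from the cells' own timing, and no uninduced library was analysed here.

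Wnt proteins are secreted, lipid-modified ligands that bind the cysteine-rich extracellular domain of Frizzled receptors, which cross the membrane many times. With an LRP co-receptor they stabilise beta-catenin, which then activates genes together with TCF factors. With other co-receptors they act on cell polarity and movement instead. In the mouse embryo Wnt3 is required to form the primitive streak, Wnt3a maintains the progenitors of the trunk and tail, and Wnt5a is required for the body axis to lengthen.

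The libraries entered every value below through 1 peak list for the whole series, which gives a position for each peak and no height or score. No value therefore has a replicate error, sequencing depth is unknown, and differences from other genes were described by counts, without a test. A gene without a listed peak may still carry binding below the authors' threshold. Of the 9598 peaks, 9403 lay on chromosomes 1 to 19 and X. Positions are those of mm10, the assembly named GRCm38 in the RefSeq gene table, and are 1-based. The table gives gene spans without exons, so "inside" a gene does not distinguish exons from introns or untranslated regions.

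Because the peaks lie in DNA whose sequence was not used here, a few promoter sequences are shown instead. Each run below is the RefSeq sequence (GRCm38.p6) of the 250 bases before an annotated start, written 5′ to 3′ on the gene's own strand. Capitals mark the homeodomain core TAAT on either strand, which reads ATTA on the opposite one. The second start of Wnt11 and the start of Fzd10 are shown because they have the shortest distances to a peak among the member promoters in the table. The Fzd5 promoter is shown as one that holds cores without a peak close by, and that of Cer1, which encodes a secreted antagonist of Nodal and BMP, because a peak covers it. Cer1 is not one of the 10 genes and was picked after its peak had been seen.
Wnt11 second start, chr7:98838595-98838844, plus strand: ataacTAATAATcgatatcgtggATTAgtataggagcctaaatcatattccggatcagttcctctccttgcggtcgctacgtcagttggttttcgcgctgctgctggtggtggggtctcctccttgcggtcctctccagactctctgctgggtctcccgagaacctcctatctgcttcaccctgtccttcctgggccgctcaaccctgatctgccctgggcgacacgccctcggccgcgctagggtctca
Fzd10, chr5:128600856-128601105, plus strand: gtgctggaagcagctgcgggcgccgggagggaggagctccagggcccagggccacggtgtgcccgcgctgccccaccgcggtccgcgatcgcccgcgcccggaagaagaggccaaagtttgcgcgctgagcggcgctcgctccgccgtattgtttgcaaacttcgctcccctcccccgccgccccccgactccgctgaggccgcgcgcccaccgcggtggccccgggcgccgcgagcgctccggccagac
Fzd5, chr1:64737751-64738000, minus strand: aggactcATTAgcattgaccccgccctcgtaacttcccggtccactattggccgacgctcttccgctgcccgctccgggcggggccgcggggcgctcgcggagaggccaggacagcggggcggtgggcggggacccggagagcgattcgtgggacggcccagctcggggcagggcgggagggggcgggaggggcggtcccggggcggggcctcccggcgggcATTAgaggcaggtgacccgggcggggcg
Cer1, chr4:82885152-82885401, minus strand: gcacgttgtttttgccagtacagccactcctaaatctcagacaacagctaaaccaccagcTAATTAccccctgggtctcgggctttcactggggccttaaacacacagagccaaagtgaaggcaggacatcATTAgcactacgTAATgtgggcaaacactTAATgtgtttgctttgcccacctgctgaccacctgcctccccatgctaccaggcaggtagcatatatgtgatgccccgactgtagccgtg

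No member promoter in the table was overlapped by a peak. The table matched 7 of the 10 genes with 10 starts, and Wnt5a, Wnt8a and Fzd8 were not matched. Over all 32851 promoters of the table, a peak overlapped 453 (1.38% of the 300-base windows that reach 50 bases past the start). The upstream 250 bases of the second Wnt11 start held 3 TAAT cores, counted on both strands with overlaps, at 4.83 kb from the peak inside that gene. Those of Fzd10 held none, at 3.60 kb from its nearer peak, and those of Fzd5 held 2, at 60.7 kb. Cores also stood in 2 of the 3 Wnt5b promoters, with 3 and 1, at 448 and 430 kb from the nearest peak. Cores were present in 4 of the 10 member promoters, against 54.9% of all promoters. The member promoters were rich in G and C, with 53.2 to 87.6%, against a median of 52.4% over all promoters, and the part of base composition in the count of cores was not tested. The palindromes that paired-type homeodomain dimers prefer are TAAT and its reverse complement 3 or 2 bases apart. They were in none of the 10, against 0.463% and 0.384% of all promoters. At shares this low, 10 promoters are too few to show a lack. In the Cer1 promoter all 250 bases lay under a peak of 1476 bp and held 5 cores, counted on both strands with overlaps, and neither palindrome. The Rnf43 promoter, the other one under a peak in the pathway lists used here, was likewise covered over all 250 bases. Its peak was 721 bp wide, and those bases held 1 core. These matches describe the letters and do not show binding.

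Most of the 10 genes had a MIXL1 peak in their neighbourhood. The members were chosen with earlier results of these data known, so the contrasts with all genes are descriptions and were not tested. A peak lay within 100 kb of 8 of the 10, against 52.8% of all protein-coding genes (11366 of 21523). Within 10 kb the counts were 5 of the 10 members and 19.1% of all genes, and a peak overlapped the span of 3 members and of 12.6% of all genes. Among all protein-coding genes 26.7% had 2 or more peaks within 100 kb, and 5 members did. The median distance to the nearest peak was 8.26 kb over the members and 89.3 kb over all protein-coding genes. The median span was 13.4 kb over the members and 17.4 kb over all protein-coding genes. The count for the members depended on narrow peaks. With only the wider 50% of the list, 3 of the 10 genes (Wnt3a, Fzd5 and Fzd7) had a peak within 100 kb, against 32.1% of all protein-coding genes.

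**Figure D1:**
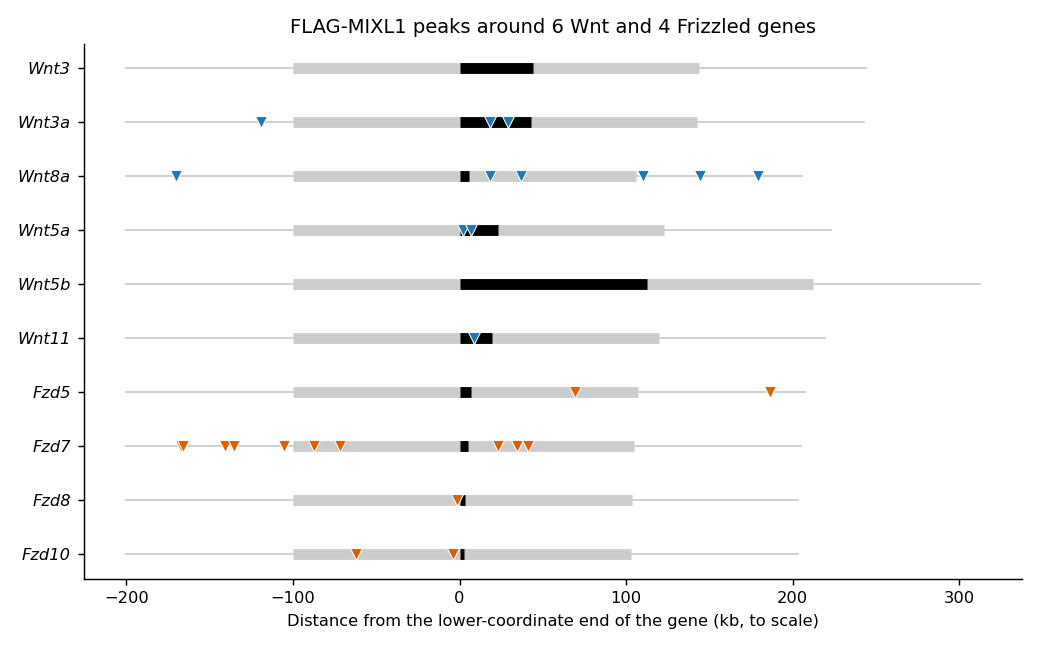
Peaks around each member within 200 kb of its span, on a linear axis in kb from the lower-coordinate end of the gene. Black bars are gene spans, thick grey bars the 100 kb on both sides, thin lines the range out to 200 kb, and triangles peak centres (blue at Wnt genes, orange at Frizzled genes). Wnt3a, Wnt5a and Wnt11 have triangles inside the gene, Fzd7 has 5 within 100 kb, and Wnt3 and Wnt5b have none in the range drawn.

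The ligands divided into genes with a peak close by and genes with none for more than 400 kb. Of the 6 ligand genes, 4 had a peak within 100 kb, against 52.8% of all protein-coding genes, and these 4 had 7 peaks in all. Wnt3 and Wnt5b had none within 200 kb, where 70.3% of all genes had one.

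Among the ligands that act mainly through beta-catenin, Wnt3a carried peaks inside its span. The gene (chromosome 11, 59248036 to 59290751) held 2, at 59266303 to 59266659 and 59276710 to 59277208, with widths of 357 and 499 bp and 10.1 kb apart. Wnt3a is annotated on the minus strand, so these lay 24.1 and 13.5 kb downstream of its start. Wnt9a, another ligand gene, lies 16.1 kb from Wnt3a, and both peaks are also within 100 kb of it. Its span was 29.6 kb from the nearer peak, so the list assigns the pair to Wnt3a by distance only. On chromosome 11 as a whole, 66.1% of protein-coding genes had a peak within 100 kb.

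Wnt8a, which acts together with Wnt3a in axis extension, had 2 peaks on one side of a span of 5.74 kb (chromosome 18, 34542327 to 34548061). The first, at 34560735 to 34560988, lay 12.7 kb from Wnt8a and 1.65 kb from Nme5, and the second, at 34579088 to 34579354, lay 31.0 kb from Wnt8a and inside Nme5. Both were among the narrowest of the list, at 254 and 267 bp, and 4.03% and 6.92% of all peaks were as narrow or narrower. Neither peak was nearer to Wnt8a than to Nme5.

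Wnt3, the ligand required for the streak, had no peak within 100 kb (chromosome 11, 103774175 to 103818021). Its nearest peak was 485 kb away inside Mapt, the tau gene, and 12.3% of protein-coding genes had their nearest peak at least as far. The span of Wnt9b overlaps that of Wnt3, and Wnt9b likewise had none, with its nearest at 528 kb.

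Of the ligands known mainly for polarity and movement, Wnt5a and Wnt11 held peaks inside the gene. Wnt5a (chromosome 14, 28504543 to 28527448) had 2, at 28506579 to 28506821 and 28511072 to 28511527, with 4.25 kb between them. The first was 243 bp wide, close to the narrowest width of 240 bp in the list, and the second was 456 bp. Both were nearest to Wnt5a, with the next protein-coding gene, Erc2, at 28.0 and 32.5 kb. Wnt11 (chromosome 7, 98835084 to 98854747) had a single peak of 334 bp at 98843677 to 98844010, which lay 4.83 kb downstream of its second annotated start. That peak was isolated, with 286 kb to the next one. Wnt5b (chromosome 6, 119432531 to 119544824), the longest of the 10 genes at 112 kb, had no peak within 100 kb and its nearest at 413 kb, inside the calcium channel gene Cacna1c.

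All 4 receptor genes had a peak within 100 kb, 9 peaks in all, beside 52.8% of all protein-coding genes. No peak overlapped the span of any of the 4, beside 12.6% of all genes. These 4 spans are short, at 2.99 to 7.19 kb. The windows searched added up to 0.818 Mb for the receptors and 1.447 Mb for the ligands. Fzd7 alone had 5 of the 9 receptor peaks. When each peak was given only to its nearest protein-coding gene, Fzd8 and Fzd10 kept a peak and Fzd5 and Fzd7 did not.

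Among these 4 receptors, Fzd8 and Fzd10 had the closest peaks. Fzd8 (chromosome 18, 9212856 to 9216201), a receptor expressed in the anterior of the embryo, had 1 peak of 254 bp at 9210971 to 9211224, which was 1.63 kb from the span. Of all protein-coding genes, 14.1% had a peak as near. The next protein-coding gene, Gjd4, was 66.9 kb from the Fzd8 peak. The Fzd8 peak was among the narrowest of the list, with 4.03% of all peaks as narrow or narrower. With only the wider 50% of the list, the nearest peak to Fzd8 was 210 kb away. Fzd10 (chromosome 5, 128601106 to 128604093) had 2 peaks, and both lay upstream of its start. The nearer one, at 128596777 to 128597254, was 3.85 kb away and overlapped the noncoding gene Fzd10os, and the other, at 128538667 to 128539106, was 62.0 kb away. Fzd10 was the nearest protein-coding gene to both, with widths of 478 and 440 bp.

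Fzd7, a receptor known from human pluripotent stem cells, had the most peaks of the 10 genes. Its 5 peaks within 100 kb (chromosome 1, gene at 59482147 to 59486955) were matched or exceeded by 3.84% of protein-coding genes. Upstream lay 59394456 to 59395254 and 59409675 to 59410739, at 86.9 and 71.4 kb, which were 799 and 1065 bp wide and overlapped the noncoding gene Gm33724. Downstream, at 18.2, 29.6 and 36.4 kb from the gene, lay 3 narrower peaks of 361, 442 and 302 bp. Of these, the last 2 were inside the protein-coding gene Gm973. None of the 5 had Fzd7 as its nearest protein-coding gene, since Cdk15 was nearer to the upstream peaks and Gm973 to the others.

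Fzd5, a receptor needed for the vessels of the yolk sac, had 1 peak (chromosome 1, gene at 64730558 to 64737750). It was the widest near any member, with 1837 bp at 64798688 to 64800524, and 98.2% of all peaks were as narrow or narrower. That peak lay 60.9 kb upstream of Fzd5 and inside Plekhm3, where it also overlapped the pseudogene Gm18633. A peak was present near 41.5% of protein-coding genes at that distance or less.

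**Figure D2:**
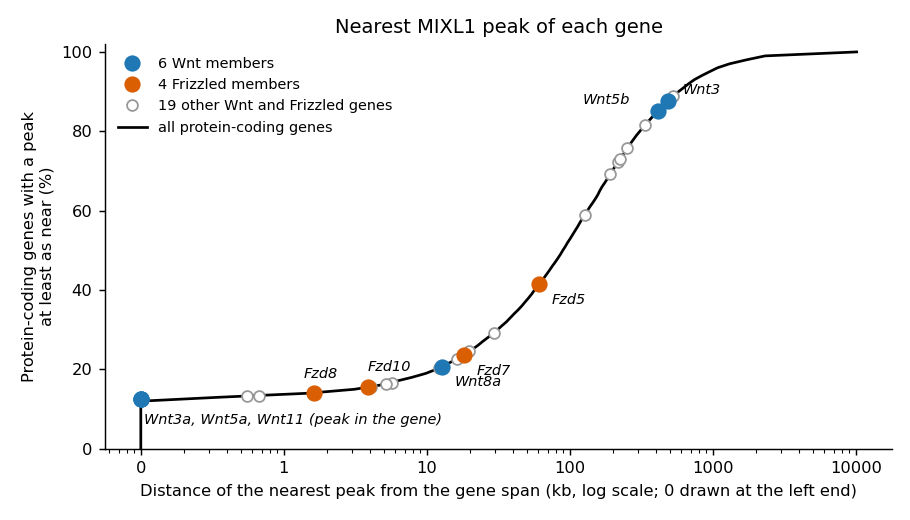
Distance of the nearest peak from each gene span (kb, log scale, with 0 drawn at the left end) against the percent of protein-coding genes with a peak at least as near. Filled points are the 10 members, open points the 19 other family genes, and the line all 21523 protein-coding genes. By construction the points lie on the line, and 7 members are at 18.2 kb or less while Wnt5b and Wnt3 are at 413 and 485 kb.

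In order of distance, Wnt3a, Wnt5a and Wnt11 came first with peaks inside the gene, then Fzd8, Fzd10, Wnt8a and Fzd7 at 1.63 to 18.2 kb, Fzd5 at 60.9 kb, and Wnt5b and Wnt3 last. The outermost peak inside the 100 kb limit was that of Fzd7 at 86.9 kb. The first peaks outside it were at 104 kb from Wnt8a, 105 kb from Fzd7 and 119 kb from Wnt3a. No peak was within 100 kb of more than 1 member.

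The 16 peaks were mostly narrow. Their median width was 400.5 bp, against 487 bp for the whole list, and 12 of the 16 were narrower than that list median. At least 1 kb wide were 2 of them, at Fzd5 and Fzd7, against 12.7% of the list. Peak width is not signal, and with no score in the list the strength of binding could not be compared.

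**Figure D3:**
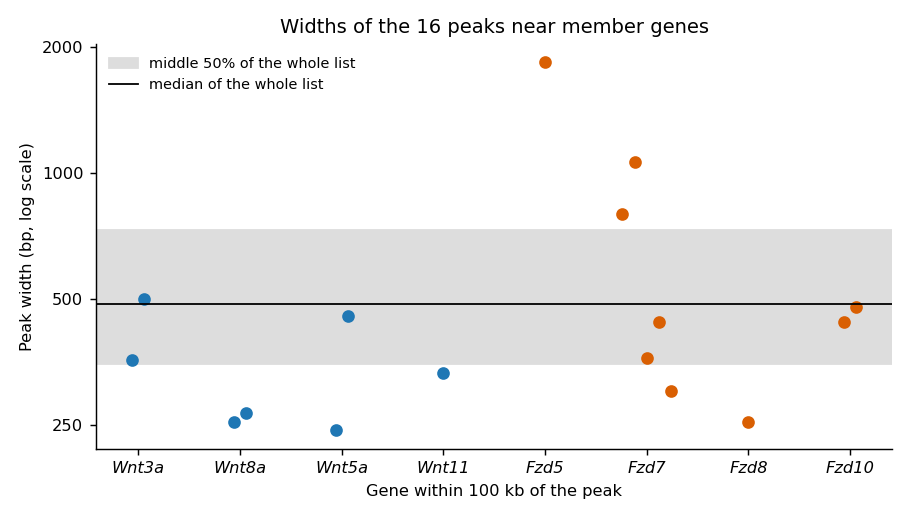
Width in bp, on a log scale, of each of the 16 peaks by the member gene within 100 kb of it. The grey band spans the middle 50% of all 9598 peaks and the line is their median of 487 bp. The peaks at Wnt8a and Fzd8 and 1 at Wnt5a lie at 243 to 267 bp, and Fzd5 has the widest at 1837 bp.

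Relative to the gene, 5 peaks were inside a member, 5 lay at lower and 6 at higher coordinates. Another peak lay within 10 kb of 4 of the 16, namely the pair inside Wnt5a and a pair downstream of Fzd7, against 30.3% of all peaks on these chromosomes. For 8 of the 16 the member was the nearest protein-coding gene, at Wnt3a, Wnt5a, Wnt11, Fzd8 and Fzd10. The other 8, at Wnt8a, Fzd5 and Fzd7, were nearer to another gene, and 4 of them were inside it. When each peak was given only to its nearest protein-coding gene, 5 of the 10 members had a peak, against 20.9% of all protein-coding genes. A peak list cannot tell which gene a bound region acts on.

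The other 19 Wnt and Frizzled genes also had both near and far peaks. Within 100 kb, 12 of these 19 genes had a peak, namely 8 of 13 Wnt genes and 4 of 6 Frizzled genes, against 52.8% of all protein-coding genes. Their median nearest distance was 16.2 kb, against 89.3 kb over all genes. Since the 10 members were chosen with earlier results known, 8 of 10 against 12 of 19 was not tested as a difference. Fzd3, a receptor of axon guidance, had 4 peaks within 100 kb, 1 of them of 1236 bp inside the gene, and 7.1% of protein-coding genes had as many. Of the others, those at 40.6 and 44.9 kb lay inside Fbxo16, and the one at 82.2 kb was nearest to Zfp395. Fzd2 had 3 peaks, the nearest at 0.672 kb, and those at 35.7 and 38.2 kb were nearer to Meioc. Single peaks lay inside Fzd6, a planar polarity receptor, and inside Wnt10a, where the peak of 245 bp also counted for the neighbouring Wnt6. Wnt8b had a peak 0.549 kb from its end, and Wnt1, Wnt2b and Wnt2 had their nearest at 4.07, 5.19 and 5.73 kb. The Wnt1 peak also counted for Wnt10b, so neighbouring ligand genes are not independent entries.

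**Figure D4:**
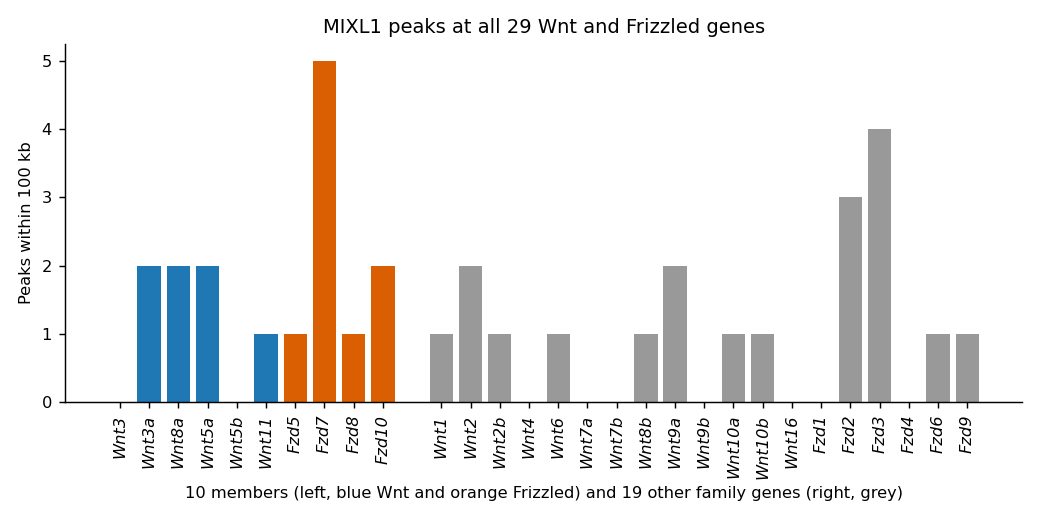
Number of peaks within 100 kb of each of the 29 Wnt and Frizzled genes, with the 10 members on the left (blue for Wnt, orange for Frizzled) and the 19 others on the right in grey. Fzd7 has 5 peaks, Fzd3 has 4, Fzd2 has 3, and 9 genes have none.

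Elsewhere in the pathway, 31 of 42 genes had a peak within 100 kb, against 52.8% of all protein-coding genes. The median nearest distance was 9.24 kb in this list and 89.3 kb over all genes. Its median span of 40.9 kb, against 17.4 kb over all genes, makes the stretch searched longer, and the part of span length in the counts was not tested. Co-receptors accounted for 5 of 6. They were led by Ror2, a receptor tyrosine kinase for Wnt5a, with 5 peaks inside its span of 177 kb, and Ror1 had 1 peak inside a span of 349 kb. Secreted inhibitors gave 8 of 13, with 3 peaks near Dkk3 and 2 near Dkk1, an LRP antagonist required for head formation, the nearest at 0.596 kb. The R-spondin axis was listed here together with Kremen1 and Kremen2, which both had a peak within 100 kb. Genes of this list, with a median span of 82.8 kb, gave 10 of 11. Of these, Znrf3, a ubiquitin ligase that removes Frizzled receptors from the membrane, and the adjoining Kremen1, a receptor for Dkk proteins, had 3 peaks each and shared 2. For ligand secretion 1 of 2 genes had a peak, inside Wls, the carrier of Wnt proteins to the cell surface. Cytoplasmic components gave 7 of 10. Axin2, a feedback inhibitor induced by Wnt signalling, had 2 peaks with 1 inside the gene, and the scaffold gene Dvl1 had 2 with the nearest at 0.02 kb. Of the 28 promoters that the table holds for 26 of these 42 genes, peaks overlapped 2, against 1.38% of all promoters. They were those of Rnf43 and of Cer1, an antagonist of Nodal and BMP that was listed here among the secreted inhibitors. Both were singled out after their values were seen.

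**Figure D5:**
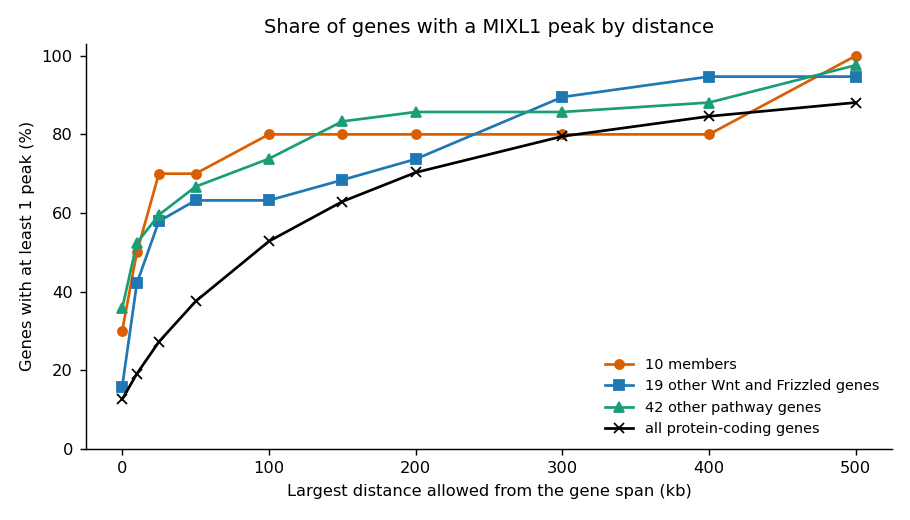
Percent of genes with at least 1 peak as the distance allowed from the gene span grows to 500 kb, for the 10 members, the 19 other Wnt and Frizzled genes, the 42 other pathway genes and all protein-coding genes. At 25 kb the shares are 70.0, 57.9, 59.5 and 27.2% in that order, and at 300 kb the members are at 80.0% and all genes at 79.5%.

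The share of genes with a peak depended on the distance allowed. Within 25 kb, 7 of the 10 members had a peak, against 27.2% of all protein-coding genes. From 100 to 400 kb the members stayed at 8 of 10, while the share of all protein-coding genes grew to 84.6%. At 300 kb the shares were 80.0% of the members and 79.5% of all genes. At 500 kb, where Wnt5b and Wnt3 also had a peak, they were 10 of 10 members and 88.1% of all genes.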

How the data were processed

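MACS2, Bowtie2, SAMtools and CASAVA 1.8.2 are named in the submitters' processing notes, with mm10 as the build. Handling of the input libraries, of the replicates and of the peak threshold is not given in the sources used here. In all, the authors deposited 1 list of 9598 peaks with chromosome, start and end. The 2 FLAG and 2 input libraries cannot be separated in it, and their depth is unknown.

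Gene spans came from the RefSeq table of GRCm38.p6, restricted to protein-coding genes on chromosomes 1 to 19 and X that start beyond 3 Mb, since entries before that point include genes of scaffolds. Distance is the gap in bp between peak and span, and is 0 where they overlap. Starts came from the RefSeq promoter table. The members and lists were chosen with earlier results of these data known. Named were all members, other family genes with a peak within 10 kb or at least 3 within 100 kb, the top 2 genes per role, and the genes nearest to member peaks. No statistical test was made. Alternatives were windows of 50 and 200 kb, peak centres, the wider 50% of peaks, nearest-gene assignment, omission of 1-Mb windows with 20 or more peaks, and distance from the gene start. The distance calculation returned every planted distance when tested on simulated peaks. Python 3.11.15, numpy 2.4.6, pandas 2.3.3 and matplotlib 3.10.9 were used.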

Additional observations from a re-analysis of the deposited data

How the results depend on the processing

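The number of members with a peak within 100 kb, 8 of 10, was 7 with a window of 50 kb and 8 with 200 kb, with peak centres, from the gene start and with dense 1-Mb windows (20 peaks or more) left out. It was 3 with the wider 50% of the peaks and 5 with nearest-gene assignment. Among all protein-coding genes the share with a peak, 52.8% as reported, was 37.5% with 50 kb, 70.3% with 200 kb and 52.7% with peak centres. That share was 49.0% from the gene start, 50.8% without dense windows, 32.1% with the wider 50% and 20.9% with nearest-gene assignment. The 16 distinct peaks became 27 within 200 kb, 4 with the wider 50% and 8 with nearest-gene assignment. The median nearest distance of 8.26 kb became 312 kb with the wider 50% of the peaks and 13.1 kb from the gene start, where Wnt3a, Wnt5a and Wnt11 no longer count as 0. The medians over all protein-coding genes in these 2 settings are not given here, so the members' distances cannot be set beside them. For genes without a matched start, among them the members Wnt5a, Wnt8a and Fzd8, the nearer end of the span was used. Of the 21523 protein-coding genes, 17274 had a matched start. The 12 of 19 other Wnt and Frizzled genes became 14 with 200 kb, 8 with the wider 50% and 9 with nearest-gene assignment. In these settings 70.3%, 32.1% and 20.9% of all protein-coding genes had a peak, in that order. The remaining settings kept 12 of 19. Of the 10 members' peak counts, 7 moved by over 1.5 times with the wider 50% of the peaks and 3 each with 50 kb, 200 kb and nearest-gene assignment. A stricter score threshold and leaving out a library could not be run, since the list has neither score nor library. No paired analysis was possible because the peak list gives no value per library.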

Other observations

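Beyond 100 kb, the peaks around Fzd7 and Wnt8a went on, a feature chosen after the values were seen. Fzd7 had 10 peaks within 200 kb, against 2.5% of protein-coding genes with as many. The 5 farther ones all lay upstream, at 105 to 167 kb, and 4 of them were inside Cdk15. One of these, at 59340635 to 59341766 on chromosome 1, was 1132 bp wide. Wnt8a had 6 peaks within 200 kb, against 7.49% of protein-coding genes with as many, and 5 of the 6 lay on the side of higher coordinates. Its outer peaks on that side were 0.337 kb from Cdc23, which encodes a subunit of the anaphase-promoting complex, and 2.82 and 0.987 kb from Gfra3, a receptor gene for neurotrophic factors of the GDNF family. Wnt5a, Wnt11, Fzd8 and Fzd10 gained no further peak between 100 and 200 kb.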
